A study of Arabidopsis thaliana with 4 samples.

Results

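The genes described here are the calcium and calmodulin signalling genes of Arabidopsis thaliana whose symbol is IQD, CML, CAM, CPK, CBL or CIPK followed by digits and that had a probe set annotated to them alone. There were 22 of them, 15 IQD and 7 CML genes, among 13356 genes with a probe set of their own and 22746 probe sets tested. Each of the 22 had a single such probe set. The current RefSeq annotation gives an IQD symbol to 33 genes and a CML symbol to 8. It also holds 9 CAM, 29 CPK, 9 CBL and 21 CIPK genes, and none of these had a probe set named for it alone in the platform table used, so calmodulin itself, the calcium-dependent protein kinases, the calcineurin B-like sensors and their kinases are not analysed here.

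Transcript levels were read on 4 single-channel oligonucleotide arrays from whole 14-day-old seedlings of the Col background. All seedlings, controls included, were max3 mutants, which cannot make strigolactones because they lack a carotenoid cleavage dioxygenase. Seedlings of 2 arrays had received 1 µM GR24, a synthetic strigolactone, for 90 min, and those of the other 2 arrays the solvent dimethyl sulfoxide (mock). Each treatment has a replicate 1 and a replicate 2, and the series text gives independent seedling preparations for the repeated experiment. GR24 was therefore compared with mock within each replicate number. Values are log2 signals, and the median signal per array lay between 7.03 and 7.06. In RNA from whole seedlings, fewer cells of a type and less RNA per cell cannot be told apart.

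Calcium ions carry many fast signals in plant cells, among them those of touch, cold, wounding, pathogens and hormones. Calmodulin and the calmodulin-like (CML) proteins bind calcium through EF-hand motifs, change shape and then bind target proteins. IQD proteins are such targets. They carry the plant-specific IQ67 domain, bind calmodulin or CML proteins, and several of them sit on microtubules, at the plasma membrane or in the nucleus, where they act as scaffolds in cell shape and growth. The CML genes measured here include several known as stress-inducible genes.

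No IQD or CML gene passed the main test of GR24 against mock. Of the 22 genes, 0 had an adjusted p under 0.05 in the limma fit that blocks on replicate number, where 0.303% of all probe sets passed. The adjusted p-values of the 22 ran from 0.186 to 0.998. At an unadjusted p under 0.05 there were 5 genes, IQD18, IQD26, iqd21 and CML38 higher and CML23 lower with GR24, in a table where 7.47% of all probe sets met that mark. At an adjusted p under 0.1 the count was again 0 of 22, with 0.484% of all probe sets. Without the block, 2 of the 22 had an unadjusted p under 0.05, as did 1.5% of all probe sets, and no probe set passed after adjustment. With the block and limma's default variance prior, 1 of the 22, IQD18, passed (adjusted p = 0.0355 in limma), as did 1.24% of all probe sets. In the main fit, the moderated standard errors lay between 0.10 and 0.14 on the log2 scale. The 95% interval of the change lay within a 2-fold change either way for all 22 genes and within a 1.5-fold change for 20 of them. The exceptions were IQD18 and CML23.

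**Figure D1:**
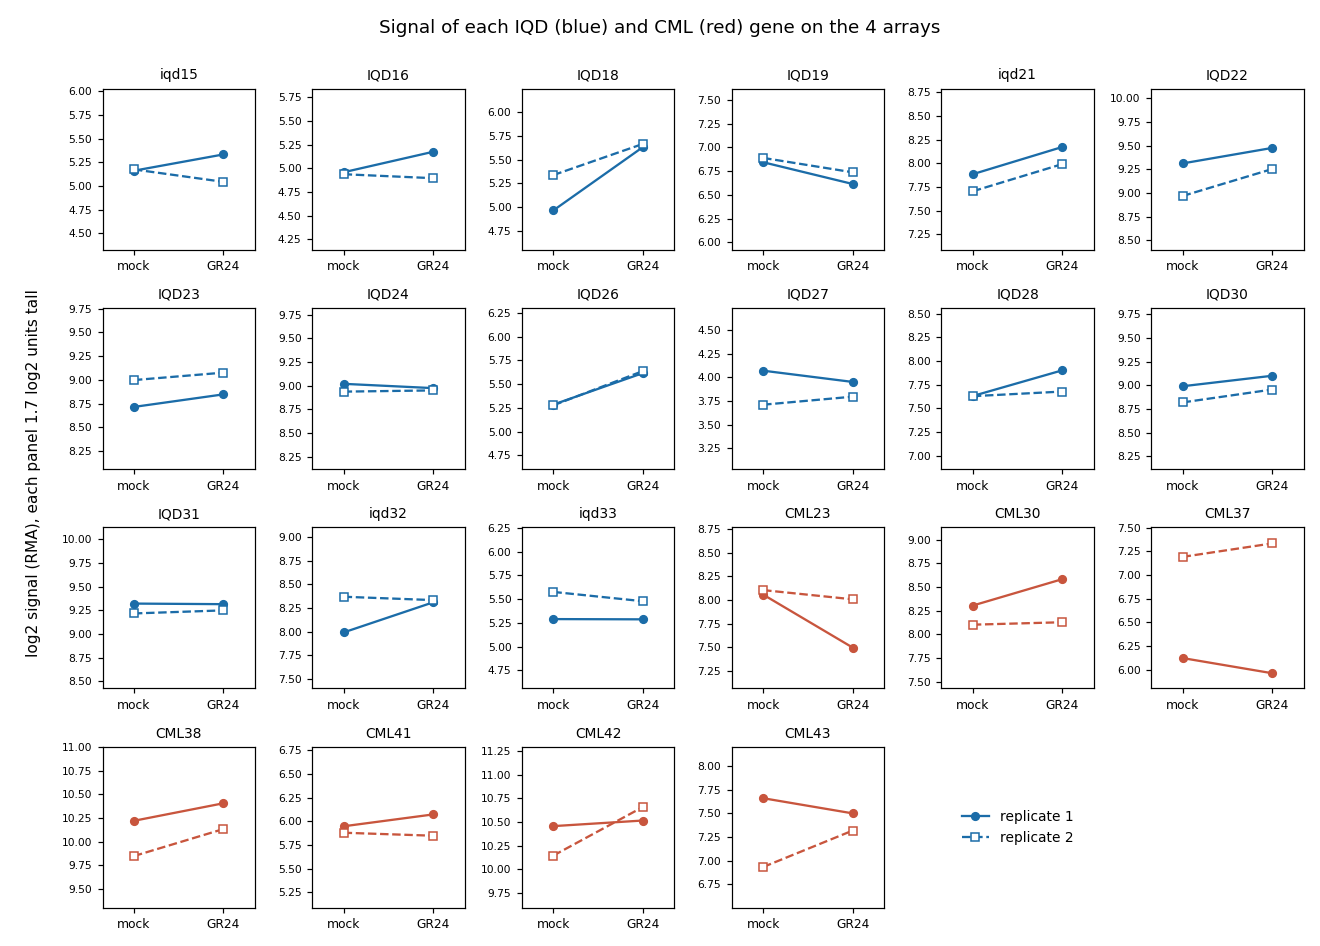
Log2 signal of each IQD gene (blue) and CML gene (red) on the mock and GR24 arrays, with a line joining the arrays of each replicate number (filled circles and solid line for replicate 1, open squares and dashed line for replicate 2). All panels span the same height in log2 units. IQD26 and iqd21 have nearly parallel upward lines, the line of IQD18 is steeper in replicate 1 than in replicate 2, and CML37 has its replicate 2 line far above its replicate 1 line.

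Among the IQD genes, the largest difference was that of IQD18 (AT1G01110), which encodes a member of the calmodulin-binding IQ67 family. Its log2 signal was 4.96 and 5.34 on the mock arrays and 5.63 and 5.67 on the GR24 arrays. Both GR24 arrays were above both mock arrays, and the mock arrays differed more from each other than the GR24 arrays did. The mean change was 0.50 ± 0.12 (moderated SE, n = 2 pairs, adjusted p = 0.186 in limma), a ratio of 1.41 with a 95% interval of 0.24 to 0.76 on the log2 scale. On every array the signal of IQD18 was below the array median. Adding 16 to the linear values before log2 gave IQD18 a smaller change of 0.36 (adjusted p = 0.324 in limma). With limma's default variance prior in place of the likelihood prior, IQD18 passed with an adjusted p of 0.0355, where 0.598% of all probe sets passed as higher. With trend and robust moderation its adjusted p was 0.0514 in limma, and without the replicate block it was 1.

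IQD26 (AT3G16490) had the next largest difference in its family. Its log2 signal was 5.28 on both mock arrays and 5.62 and 5.64 on the GR24 arrays. The groups did not overlap, and the change was nearly equal in the pairs, at 0.33 in replicate 1 and 0.36 in replicate 2. The mean of 0.35 ± 0.10 had a 95% interval of 0.12 to 0.58 and an adjusted p of 0.337 in the paired limma model. The signal of IQD26 was also below the median of every array, and its change was 0.25 with the offset of 16 (adjusted p = 0.438 in limma). The signal of iqd21 (AT3G49260, symbol in lower case in the annotation) was 7.88 and 7.70 on the mock arrays and 8.17 and 7.99 on the GR24 arrays. Its change was 0.29 in each pair, while both replicate 2 arrays were below the replicate 1 array of the same treatment. The adjusted p of iqd21 was 0.49 in the same model (mean 0.29 ± 0.10).

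A further 4 IQD genes had a change above 0 in both pairs. IQD22 (AT4G23060) changed by 0.16 in replicate 1 and 0.28 in replicate 2, IQD30 (AT1G18840) by 0.11 and 0.14, and IQD23 (AT5G62070) by 0.13 and 0.08. IQD28 (AT1G14380) changed by 0.27 in replicate 1 and by 0.049 in replicate 2, so most of its mean of 0.16 came from the replicate 1 pair. The arrays of IQD28 did not overlap between treatments (7.63 on both mock arrays, 7.90 and 7.68 with GR24). Those of IQD22, IQD23 and IQD30 did, because the arrays of different replicate numbers differed more than the treatments. The adjusted p-values of these 4 genes ran from 0.695 for IQD22 to 0.902 for IQD23 in limma.

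IQD19 (AT4G14750) and iqd33 (AT5G35670) were below 0 in both pairs. The signal of IQD19 was 6.84 and 6.89 on the mock arrays and 6.61 and 6.74 on the GR24 arrays. It was the 1 IQD gene with both GR24 arrays below both mock arrays (mean change -0.19 ± 0.10, adjusted p = 0.761 in the paired limma model). For iqd33 the change was -0.0026 in replicate 1 and -0.098 in replicate 2, against a replicate 2 signal that was higher with either treatment.

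The other 6 IQD genes changed in opposite directions in the pairs. The widest gap was that of iqd32 (AT1G19870), whose signal went from 7.99 to 8.31 in replicate 1 and from 8.37 to 8.33 in replicate 2. The arrays of iqd32 were alike with GR24 and apart without it. The signal of iqd15 (AT3G49380) went from 5.16 to 5.33 in replicate 1 and from 5.18 to 5.04 in replicate 2. IQD16 (AT4G10640) changed by 0.22 and -0.042, IQD27 (AT1G51960) by -0.12 and 0.085, IQD24 (AT5G07240) by -0.045 and 0.013, and IQD31 (AT1G74690) by -0.0062 and 0.032 in replicates 1 and 2. IQD24 and IQD31 thus had nearly the same signal on each pair of arrays, and their 95% intervals ran from -0.25 to 0.21 and from -0.22 to 0.24. IQD27 was the 1 gene of the 22 whose mean signal lay below the lowest quartile of all probe sets (4.72). In RefSeq gene order iqd15 and iqd21 lie near each other, with 12 protein-coding genes between them, and they had mean changes of 0.02 and 0.29.

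As a family, 11 of the 15 IQD genes had a mean change above 0 and 4 below, and the median change was 0.11. Over all 13356 genes 53.9% had a mean above 0 and the median was 0.01. A change above 0 in both pairs was found for 7 IQD genes and below 0 in both for 2. Among all genes, 28.5% were above 0 in both pairs and 23.2% below 0 in both. Both GR24 arrays lay above both mock arrays for 4 IQD genes, IQD18, IQD26, IQD28 and iqd21, where 13.2% of all genes did so. They lay below for IQD19 alone, where 10.6% of all genes did so. These counts describe the family and were not tested as a set. The median was 0.16 in replicate 1 and 0.049 in replicate 2.

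**Figure D2:**
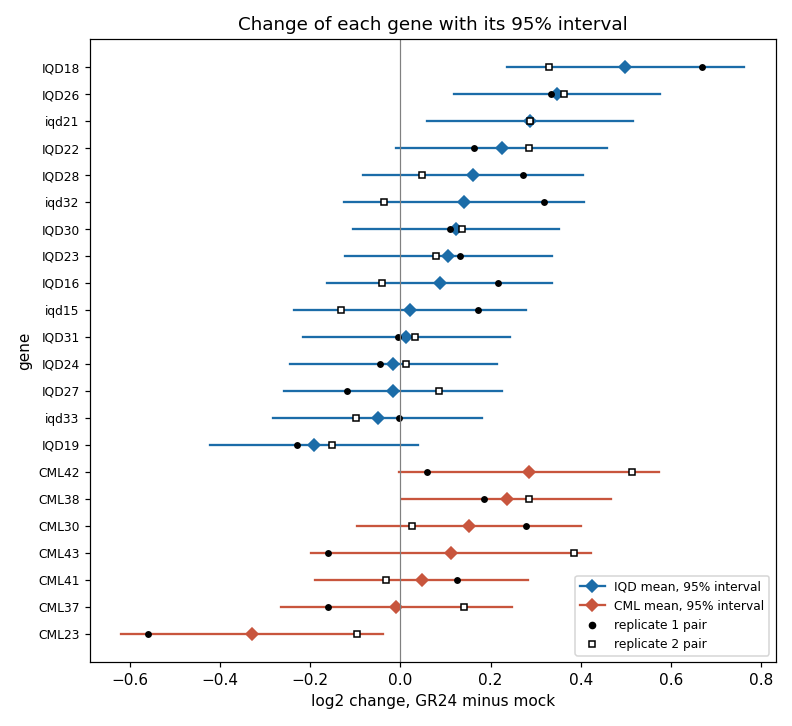
Mean log2 change, GR24 minus mock, of each IQD gene (blue diamonds) and CML gene (red diamonds) with its 95% interval from the paired limma model (horizontal line), and the change in the replicate 1 pair (filled circles) and the replicate 2 pair (open squares). The intervals of IQD18, IQD26, iqd21 and CML38 lie above 0 and that of CML23 below, before any adjustment for the number of probe sets tested.

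Of the 7 calmodulin-like genes, CML23 (AT1G66400) had the largest difference. CML23 is a close relative of the touch gene CML24, and the pair is known for roles in flowering time and nitric oxide levels. Its log2 signal was 8.06 and 8.11 on the mock arrays and 7.50 and 8.01 on the GR24 arrays. Both GR24 arrays were below both mock arrays, but the difference was -0.56 in replicate 1 and -0.097 in replicate 2. The mean of -0.33 ± 0.13 (95% interval -0.62 to -0.038) had an adjusted p of 0.57 in the paired limma model and rested mainly on the low GR24 array of replicate 1.

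CML42 (AT4G20780), known for roles in trichome branching and in defence against herbivores, showed the reverse dependence on the replicate number. Its signal was 10.46 and 10.15 on the mock arrays and 10.52 and 10.66 on the GR24 arrays. The treatments did not overlap, with a change of 0.059 in replicate 1 and 0.51 in replicate 2 (mean 0.29 ± 0.13, adjusted p = 0.674 in limma). CML38 (AT1G76650), a gene strongly induced by low oxygen and other stresses, was more even. Its signal was 10.22 and 9.85 on the mock arrays and 10.41 and 10.13 on the GR24 arrays. GR24 was higher by 0.19 in replicate 1 and 0.29 in replicate 2, but the GR24 array of replicate 2 lay below the mock array of replicate 1 (mean 0.24 ± 0.10, adjusted p = 0.659 in limma).

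CML30 (AT2G15680), whose product is located in mitochondria, changed by 0.28 in replicate 1 and 0.026 in replicate 2. The remaining CML genes had opposite signs in the pairs. CML43 (AT5G44460), a close relative of CML42, had the widest gap between pairs of all 22 genes. Its signal went from 7.66 to 7.50 in replicate 1 and from 6.93 to 7.32 in replicate 2, so its lowest and highest values were both on mock arrays. CML37 (AT5G42380), linked to jasmonate-dependent defence against herbivores, changed by -0.16 and 0.14. CML41 (AT3G50770), which acts at plasmodesmata in the response to bacterial flagellin, changed by 0.13 in replicate 1 and -0.031 in replicate 2. Their mean changes were 0.11 for CML43, -0.0091 for CML37 and 0.05 for CML41, with intervals that all included 0.

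Counted as a family, 3 CML genes were above 0 in both pairs, 1 was below in both and 3 had opposite signs. Among all genes, 28.5% were above 0 in both pairs and 23.2% below in both. The median change of the CML genes was 0.11, with 0.059 in replicate 1 and 0.14 in replicate 2, against a median of 0.01 over all genes. Both GR24 arrays lay above both mock arrays for CML42 alone of the 7, where 13.2% of all genes did so. They lay below for CML23 alone, where 10.6% of all genes did so. These counts were not tested as a set. A neighbouring gene, AT1G76640, carries the name CML39 only among its synonyms and so fell outside the rule. It lies next to CML38 in RefSeq gene order, with 0 protein-coding genes between them. Its signal was 8.55 and 8.05 on the mock arrays and 8.16 and 8.10 on the GR24 arrays, a change of -0.40 in replicate 1 and 0.048 in replicate 2 (adjusted p = 0.859 in the paired limma model). CML38 and this gene thus differed in sign in the replicate 1 pair, and both were lower on the replicate 2 mock array than on the replicate 1 mock array.

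**Figure D3:**
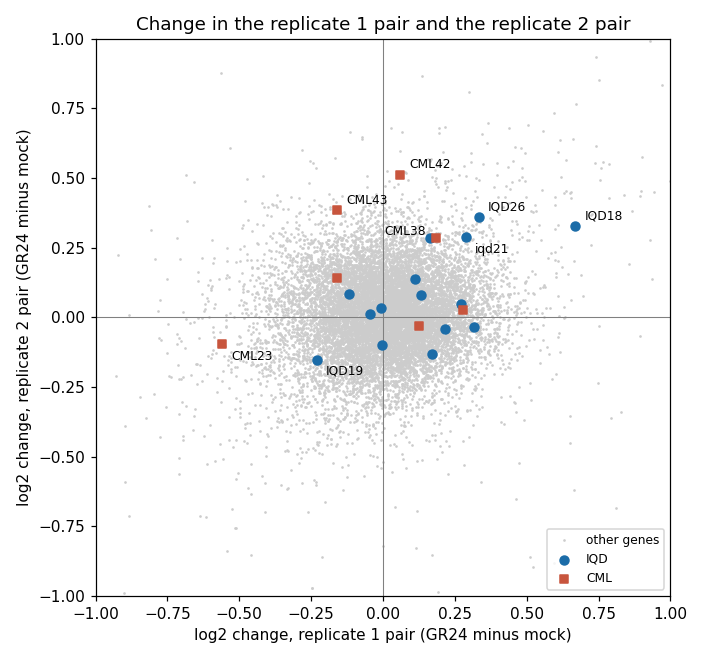
Log2 change with GR24 in the replicate 1 pair (horizontal) and the replicate 2 pair (vertical) for the IQD genes (blue circles), the CML genes (red squares) and all other genes with a probe set of their own (grey). Axes stop at 1 either way, which leaves 27 genes outside. IQD18, IQD26 and iqd21 lie above 0 on both axes, and CML23, CML42 and CML43 lie far from 0 on mainly 1 axis or on opposite sides of 0.

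In the IQD genes the changes of the pairs lay closer together than in the CML genes. The median gap between the changes of the pairs, taken without sign, was 0.10 for the 15 IQD genes and 0.30 for the 7 CML genes, against 0.15 over all genes. Across the 15 IQD genes the changes in replicate 1 and replicate 2 had a Pearson correlation of 0.60 and a Spearman correlation of 0.48. Across the 7 CML genes the values were 0.25 and 0.14, and across all genes 0.17 and 0.08. These correlations run across genes, which share arrays and are not independent replicates, and the difference between the families was not tested.

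Like most genes in the whole table, most of these genes differed more between replicate numbers than between treatments. For 10 of the 15 IQD genes and 5 of the 7 CML genes the difference between replicate 2 and replicate 1 was larger in size than that between GR24 and mock, as it was for 67.2% of all genes. With treatment held constant, 1 of the 22 genes passed the test between replicate numbers, where 16.7% of all probe sets did. That gene was CML37. Its signal was 6.12 with mock and 5.96 with GR24 in replicate 1, and 7.19 with mock and 7.33 with GR24 in replicate 2. Replicate 2 was higher with either treatment, by 1.22 ± 0.11 on the log2 scale or 2.33-fold (2 arrays per replicate number, adjusted p = 0.000829 in limma). Each replicate number stands for a single seedling preparation. The p-values between replicate numbers therefore do not measure the spread among preparations.

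The direction was the reverse in CML43, CML38 and CML30, which had lower signals in replicate 2 and did not pass. Their replicate 2 minus replicate 1 differences were -0.45 ± 0.14 for CML43, -0.32 ± 0.10 for CML38 and -0.33 ± 0.11 for CML30 (adjusted p = 0.0539, 0.0629 and 0.074 in limma). These 3 passed with limma's default prior (adjusted p from 0.0134 to 0.0436), where 21.8% of all probe sets passed. CML23 had a difference of 0.28 and CML42 of -0.084. In size, the median difference between replicate numbers was 0.32 for the CML genes, 0.16 for the IQD genes and 0.14 over all genes. None of the 15 IQD genes passed this test in limma, and 4 of the 15 had an unadjusted p under 0.05, where 31.5% of all probe sets did. Their differences ran from -0.28 for IQD22 to 0.26 for IQD23, and that of IQD26 was 0.007.

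The 2 measured markers of root tissue also differed between the replicate numbers. Of the 18 root genes listed, 2 had a probe set of their own, both expansins of root hairs. EXPA7 had a log2 signal of 4.84 and 4.79 in replicate 1 and 5.58 and 5.38 in replicate 2 (mock, then GR24). EXPA18 had 4.94 and 5.07 in replicate 1 and 5.51 and 5.66 in replicate 2. Both passed the test between replicate numbers in limma (differences of 0.67 and 0.58, adjusted p = 0.00535 and 0.00785), where 16.7% of all probe sets did. Their signals were below the median of every array. The 1 measured shoot marker of 20, rubisco activase (RCA), lay between 13.43 and 13.56 on all arrays. The part of tissue make-up in the CML37 difference was not tested. Between GR24 and mock these markers changed by -0.12 (EXPA7), 0.14 (EXPA18) and 0.02 (RCA).

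**Figure D4:**
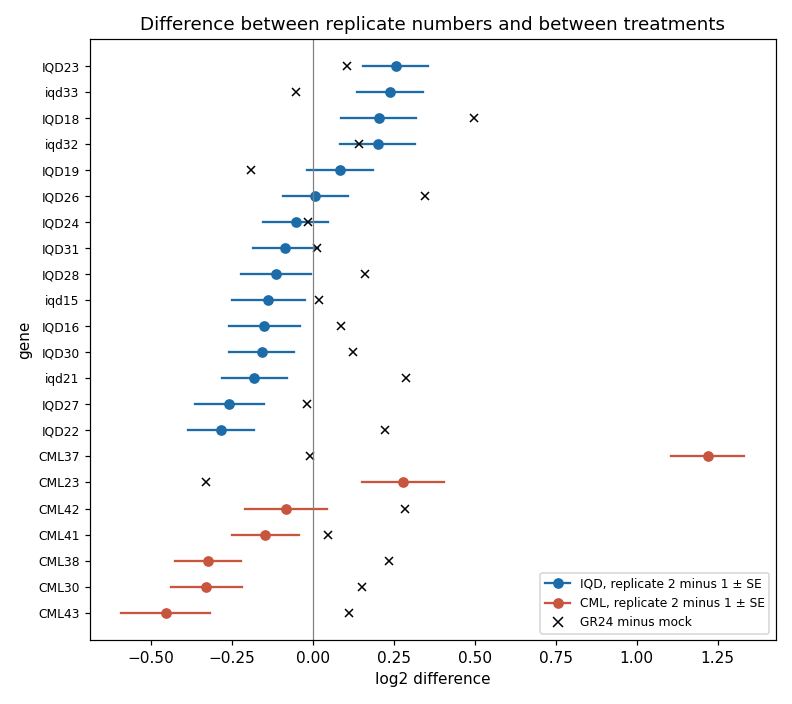
Log2 difference between replicate 2 and replicate 1 with treatment held constant (blue circles for IQD genes, red circles for CML genes, with the moderated SE as a line), beside the GR24 minus mock change of the same gene (black crosses). CML37 stands at 1.22 with a treatment change near 0, and CML43, CML38 and CML30 lie below -0.30 between replicate numbers.

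Other calcium genes, taken from lists by role, had few probe sets of their own. Of 65 symbols of calcium entry channels 8 were measured, all glutamate receptor-like (GLR) genes, whose products are cation channels of plant membranes. None of the 8 passed in the paired limma model, where 0.303% of all probe sets did. An unadjusted p under 0.05 was found for 0 of the 8 and for 7.47% of all probe sets. GLR3.3, a channel needed for wound-induced electrical and calcium signals between leaves, had the largest change among those with the same sign in both pairs. Its signal was 7.08 and 7.17 on the mock arrays and 6.92 and 6.91 on the GR24 arrays, with no overlap between the treatments (mean change -0.21 ± 0.10, adjusted p = 0.72 in limma). GLR2.7 changed by -0.10 with GR24 but stood 1.13 ± 0.10 higher in replicate 2 than in replicate 1 (adjusted p = 0.00072 in limma). Of the 13 other calcium and touch genes 3 passed the limma test between replicate numbers, where 16.7% of all probe sets did. Beside GLR2.7, SRC2 was higher in replicate 2 (0.52 ± 0.12, adjusted p = 0.0199), as CML37 was, and WRKY53 was lower (-0.69 ± 0.12, adjusted p = 0.00865).

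The calcium-binding chaperone gene CRT1b changed by 0.08, and SRC2, which encodes a C2-domain protein that binds calcium, by -0.03. Both had opposite signs in the pairs. Of 17 touch genes 3 were measured, and none passed. WRKY53, a transcription factor gene, changed by 0.16 in replicate 1 and 0.57 in replicate 2 (mean 0.36 ± 0.12, adjusted p = 0.47 in limma). EXO, which encodes a cell wall protein of growth control, changed by 0.29 and 0.016, and the zinc finger gene STZ by -0.054 and 0.043. Of the 13 other calcium and touch genes, 0 passed the limma test, where 0.303% of all probe sets did. Only 1 of the 13, WRKY53, had an unadjusted p under 0.05, where 7.47% of all probe sets met that mark. The lists of calcium pumps and exchangers, other calmodulin-binding proteins and partners of IQD proteins had 0 genes with a probe set of their own.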

How the data were processed

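The deposited values are log2 signals that the authors computed with RMA (per the submitters' processing notes; version not given in the sources used here). RMA equalises array distributions and combines the probes of a set, so differences of dim sets can be noisy. Of 22810 probe sets, 64 controls were left out and 22746 were tested without a filter. The platform table named 13513 with 1 gene, 503 with several and left 8730 unnamed. Symbols were matched in either case.

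Two-sided tests used limma 3.58.1 (R 4.3.3) and blocked on replicate number (1 residual degree of freedom), with Benjamini-Hochberg adjustment over all probe sets at 0.05. A maximum-likelihood fit set the prior variance (7.62 prior degrees of freedom) in place of limma's default (18.3). With 1 residual degree of freedom, every SE rests mostly on the shared prior under either choice. The likelihood prior was the stricter of the priors used in earlier work on these data, and those results were known when it was chosen. The script was run on simulated data with variances drawn much as the likelihood prior assumes, so that run does not decide between the priors. The pairing comes from the labels' numbers and the series text, and deviations of same-numbered arrays correlated at 0.712 across probe sets. Nothing says that arrays within a preparation came from separate cultures, so p-values reflect only the spread among the arrays, which may be technical, and 2 arrays per group limit the precision.

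The genes and lists were chosen with earlier results of these data known. Genes described in full had the same sign in both pairs and the 3 largest mean changes of their family, or opposite signs and the 2 widest gaps between pairs, or passed a test. In each list of other genes, those passing and up to 2 with the largest same-sign change were named, and further genes were added after their values were seen. CP1 was dropped from its list because the measured gene of that symbol encodes a protease. Alternatives were no block, other priors, repeated quantile normalization, median centring, an offset of 16, no dim probe sets, averaged probe sets, a threshold of 0.1 and each pair alone.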

Additional observations from a re-analysis of the deposited data

How the results depend on the processing

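The count of 0 IQD and CML genes past the threshold with GR24 held with no replicate block (lowest adjusted p = 1 in limma), trend and robust moderation, both scalings, an offset of 16, dim probe sets left out, averaged probe sets and a threshold of 0.1. It was 1, IQD18, with limma's default prior and replicate block, where 1.24% of all probe sets passed in either direction. The change of IQD18 was 0.50 in both fits, which differ only in the prior. Which prior suits these data better was not tested. Without the block 2 of the 22 had an unadjusted p under 0.05 in limma, against 5 with it. The count between replicate numbers was 1. It was 4 under limma's default prior (21.8% of all probe sets passed), 4 under trend and robust moderation (21.6%), 2 with the offset of 16 (CML37 and CML38, 16.7%) and 5 of 22 at a threshold of 0.1 (24.6%). For GR24 against mock, the 13 other calcium and touch genes gave 0 under every setting run. Among single genes, IQD31 turned from 0.013 to -0.012 with repeated quantile normalization and to -0.0024 with median centring. Without replicate 1 or 2 the median change ran from 0.049 to 0.16 for the IQD genes and from 0.059 to 0.14 for the CML genes, as values with no test. Over both scalings and the offset, the IQD median ran from 0.09 to 0.10, against 0.11 in the main fit. Averaging probe sets could not change it, because each member had a single probe set. Restricting symbols to capitals, adding CML39 and the default prior without a block were chosen after the data were seen and changed no count. The restriction only drops members, so it could not have raised a count. With CML39 added, the median change of the CML genes was 0.08, against 0.11 without it. No detection calls were used, so dim signals have no stated background.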
